A study of Mus musculus with 9 samples.

Results

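The regions described here are stretches of accessible chromatin that stood among the strongest peaks of every multipotent progenitor (MPP) library and of no long-term haematopoietic stem cell (LT-HSC) library, although at least 1 LT-HSC library still held a weaker peak there. Accessibility was measured by ATAC-seq, in which a transposase cuts open DNA and tags the cut ends for sequencing. Each deposited peak list was ranked by the −log10 q-value and then by the fold enrichment of its peaks, rank 1 being the strongest. The 22690 strongest peaks of each list, the length of the shortest list, formed its top set. Over the 9 libraries, top-set peaks sharing 1 bp or more were joined into 42133 regions. Of these, 1835 (4.36%) had a top-set peak in all 4 MPP libraries and in none of the 5 LT-HSC libraries, and overlapped a peak of the full list of an LT-HSC library. They made up 9.77% of the 18777 regions that were in the top set of all 4 MPP libraries. That share is the outcome of the choice itself and was not tested.

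The tested mice lacked the retinoid X receptors alpha and beta (RXRa/RXRb-KO, here KO) and their controls were wild type (WT), all on the C57BL/6 strain. Bone marrow cells depleted of lineage-positive cells were taken from pooled animals and sorted by flow cytometry. The libraries were MPP KO 1 and 2, MPP WT 1 and 2, LT-HSC KO 1, 2 and 4, and LT-HSC WT 2 and 3. The labels name neither the driver of the deletion nor the ages of the mice. They do not say either whether replicates are separate pools, so the p-values below reflect the spread among libraries, and this spread may be purely technical.

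LT-HSCs are rare, mostly quiescent cells that sustain blood formation for life. MPPs are their descendants, which divide more often, have lost long-term self-renewal and begin to open genes of the myeloid and lymphoid lineages. Enhancers, the distal switches that bind lineage factors such as PU.1, C/EBP and RUNX proteins, are often accessible before the genes they serve are fully active. RXRs are nuclear receptors that bind DNA as partners of the retinoic acid, liver X and peroxisome proliferator-activated receptors.

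Few of the regions lay on promoters, and these belonged to genes of many kinds, some of them genes of innate immune cells. Of the 1835 regions, 1783 had a listed start on their chromosome. Of these, 109 overlapped a promoter window listed by RefSeq (GRCm38.p6, the assembly behind mm10, from 250 bases before to 50 bases after a gene's start). These windows belonged to 116 genes, of which 79 were protein-coding. The 250 bases before the start are shown for the 4 promoters with the strongest mean rank in MPPs, because they carry the strongest promoter peaks of the set. They are those of Nlrp1b (chr11:71230734-71230983, minus strand), an inflammasome sensor, Ifngr2 (chr16:91546809-91547058, plus strand), a subunit of the interferon gamma receptor, Trem1 (chr17:48232489-48232738, plus strand), an activating receptor of myeloid cells, and Hsd11b1 (chr1:193242361-193242610, minus strand), which regenerates active glucocorticoid. Cd5 (chr19:10738975-10739224, minus strand), a receptor of lymphocytes, is shown as the promoter among the genes named by the rule given under the processing. Bpi (chr2:158257991-158258240, plus strand), a bactericidal protein of granules, and Csk (chr9:57645654-57645903, minus strand), a kinase that restrains Src family kinases, are shown because they are the next strongest that hold the letters GAGGAAG. Capitals mark GAGGAAG, a form of the PU.1 motif, and TGTGGT, the RUNX motif, on either strand.
Nlrp1b: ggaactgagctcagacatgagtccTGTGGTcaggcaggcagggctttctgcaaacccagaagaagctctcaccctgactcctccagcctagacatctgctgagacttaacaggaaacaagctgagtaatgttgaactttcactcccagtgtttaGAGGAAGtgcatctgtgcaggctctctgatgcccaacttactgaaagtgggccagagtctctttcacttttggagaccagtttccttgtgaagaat
Ifngr2: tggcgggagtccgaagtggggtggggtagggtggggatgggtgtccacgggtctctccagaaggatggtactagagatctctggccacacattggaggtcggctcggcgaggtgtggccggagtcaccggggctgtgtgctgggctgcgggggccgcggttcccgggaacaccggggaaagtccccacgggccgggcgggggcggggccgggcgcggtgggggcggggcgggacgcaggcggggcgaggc
Trem1: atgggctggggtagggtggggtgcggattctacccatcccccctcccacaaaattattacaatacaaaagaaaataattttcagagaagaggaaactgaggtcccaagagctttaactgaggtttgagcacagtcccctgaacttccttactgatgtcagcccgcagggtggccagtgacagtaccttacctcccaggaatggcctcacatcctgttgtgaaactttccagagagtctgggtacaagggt
Hsd11b1: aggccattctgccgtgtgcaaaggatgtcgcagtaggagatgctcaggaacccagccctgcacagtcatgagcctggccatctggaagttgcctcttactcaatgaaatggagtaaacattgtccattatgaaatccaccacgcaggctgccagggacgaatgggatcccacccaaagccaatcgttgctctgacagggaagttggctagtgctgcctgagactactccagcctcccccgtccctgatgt
Cd5: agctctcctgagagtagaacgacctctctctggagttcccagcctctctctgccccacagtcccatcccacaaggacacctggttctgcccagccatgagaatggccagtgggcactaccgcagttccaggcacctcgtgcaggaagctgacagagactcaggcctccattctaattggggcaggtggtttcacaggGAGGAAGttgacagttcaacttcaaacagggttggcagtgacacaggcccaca
Bpi: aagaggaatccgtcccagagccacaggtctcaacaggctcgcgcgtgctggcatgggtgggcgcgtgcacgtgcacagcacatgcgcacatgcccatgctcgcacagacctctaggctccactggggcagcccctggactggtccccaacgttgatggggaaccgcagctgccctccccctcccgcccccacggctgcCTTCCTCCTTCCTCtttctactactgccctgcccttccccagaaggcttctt
Csk: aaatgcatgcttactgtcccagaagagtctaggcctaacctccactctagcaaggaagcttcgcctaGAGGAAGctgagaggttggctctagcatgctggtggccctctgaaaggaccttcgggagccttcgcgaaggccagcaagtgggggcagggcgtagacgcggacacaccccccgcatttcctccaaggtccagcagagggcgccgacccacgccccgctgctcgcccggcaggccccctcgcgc

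The Nlrp1b window held 1 match to each motif, Bpi held 2 adjoining PU.1 matches, and Cd5 and Csk held 1 PU.1 match each. No marked letters stand in the windows of Ifngr2, Trem1 and Hsd11b1. The Nlrp1b region ranked 4574 and 4050 in MPP KO 1 and 2 and 3388 and 3226 in MPP WT 1 and 2, against 26962 in LT-HSC KO 2, 23339 in LT-HSC KO 4 and 23548 in LT-HSC WT 2. Both WT ranks of the Nlrp1b region in MPPs were stronger than both KO ranks. The Trem1 region ranked 5461 and 8595 in MPP KO 1 and 2 and 6231 and 5572 in MPP WT 1 and 2, and the only LT-HSC peak there was that of KO 2, at rank 38984. Other innate immune genes with a promoter among these regions were Nlrp3, another inflammasome sensor, Cx3cr1, the fractalkine receptor of monocytes, and Fcgr3, a receptor for antibody. These 3 were named after their values were seen. Genes of other kinds, such as Slc6a12, Hrh3 and Vmn2r29, also had a promoter among the regions. Innate immune genes were not counted, here or over all promoters, so no excess of them is shown.

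GAGGAAG was present in 25 of the 116 promoters (21.6%), against 11.2% of the 8156 promoters overlapped by any region in the top set of all 4 MPP libraries, 10.9% of the 6170 promoters overlapped by regions in the top set of all 9 libraries and 10.4% of all 27025 listed promoters. The promoters of regions in all 4 MPP top sets with no LT-HSC peak at all held it in 10 of 26 cases. Among the 79 protein-coding promoters of the 116, 14 held GAGGAAG, and the other sets were not split by gene type. TGTGGT was found in 16.4% of the 116 promoters, against 10.5% of those overlapped by any region top in all 4 MPP libraries and 14.2% of all listed. The C/EBP letters TTNCNNAA were found in 32.8%, against 25.8% and 36.9% of the same 2 sets. The RXR half-site AGGTCA was found in 10.3%, against 9.40% and 13.8%. The bare ETS core GGAA, which lies inside GAGGAAG, was found in 95.7%, against 93.0% and 93.4%. The remaining shares were 5.17% for the AP-1 letters TGANTCA, 9.48% for AGATAA, bound by the GATA factor family, and 7.76% for the E-box CACGTG in the 116 promoters, against 3.52%, 4.36% and 9.23% of promoters overlapped by any region top in all 4 MPP libraries and 6.87%, 10.3% and 6.05% of all listed. Both strands were searched over the whole window, promoters of different size sets were not tested against each other, and a match is a description of letters, not of a bound factor.

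The LT-HSC lists differed widely in length, which sets which of them can hold these regions. The MPP lists held 78189 and 86353 peaks (KO 1 and 2) and 85471 and 80451 peaks (WT 1 and 2), and the LT-HSC lists 22690, 43126 and 71586 peaks (KO 1, 2 and 4) and 50023 and 22878 peaks (WT 2 and 3). LT-HSC KO 1 is the shortest list, so it has no peak outside its top set and can hold none of the regions. LT-HSC WT 3 has 188 such peaks. With LT-HSC KO 1 left out of the choice, and the top sets as long as the shortest remaining list, there were 1990 regions, and with LT-HSC WT 3 left out there were 2253. Read depth is unknown, and its part in these lengths was not tested.

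The sorted populations were checked against defining genes. Peaks at the MPP markers Flt3, Cd34, Cd48 and Cd27 that were in the top set numbered 10 to 12 per MPP library, against 3 to 7 per LT-HSC library. At 8 LT-HSC markers, among them Procr, Hlf and Meis1, there were 9 to 13 top-set peaks per MPP library, against 10 to 20 per LT-HSC library. All 8 LT-HSC markers had a peak in every MPP library. At the myeloid markers Itgam, Csf1r, Mpo and Elane there were 4 to 7 top-set peaks per MPP library, against 1 or 2 per LT-HSC library. At the B cell markers it was the other way, with 1 top-set peak per MPP library, against 2 to 4 per LT-HSC library. At the 3 erythroid markers there were 2 per MPP library, against 2 or 3 per LT-HSC library, and at the T cell markers none in any library. Counted over the full lists, whose lengths differ, the MPP libraries held 15 to 18 myeloid peaks, against 1 to 9 in LT-HSC libraries, where Elane had none, 15 to 22 B cell peaks, against 3 to 10, 6 or 7 T cell peaks, against 0 to 2, and 3 or 4 erythroid peaks, against 2 to 6. Whether mature cells in the sorts had a part in the results was not tested.

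In MPPs the regions sat in the lower part of the top set rather than at its head. The median rank was 14770 and 14799 in MPP KO 1 and 2 and 13728 and 13830 in MPP WT 1 and 2. Their mean rank over the 4 MPP libraries ran from 682 to 21865 with a median of 14581, whereas regions in the top set of all 9 libraries had a median of 5568. The LT-HSC peaks at the same regions had median ranks of 34200 in KO 2, 42425 in KO 4, 35162 in WT 2 and 22811 in WT 3. Ranks from lists of different length show no change in accessibility by themselves. As a share of the list, the median rank lay at 18.9%, 17.1%, 16.1% and 17.2% in MPP KO 1, MPP KO 2, MPP WT 1 and MPP WT 2, and at 79.3%, 59.3%, 70.3% and 99.7% in LT-HSC KO 2, LT-HSC KO 4, LT-HSC WT 2 and LT-HSC WT 3. These values follow from the choice of the regions and were not tested.

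The authors' fold enrichment over background, a value of each peak within its own list, had a median over the regions of 17.3 and 18.6 in MPP KO 1 and 2 and 18.8 and 17.8 in MPP WT 1 and 2. In LT-HSCs it was 5.43 in KO 2, 6.53 in KO 4, 5.75 in WT 2 and 3.40 in WT 3, over the regions each library held. All peaks of the same lists had medians of 8.75 to 8.97 in MPPs and 6.63 to 7.63 in LT-HSCs. The peaks of the regions were thus stronger than the middle of the MPP lists and weaker than the middle of the LT-HSC lists.

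**Figure D1:**
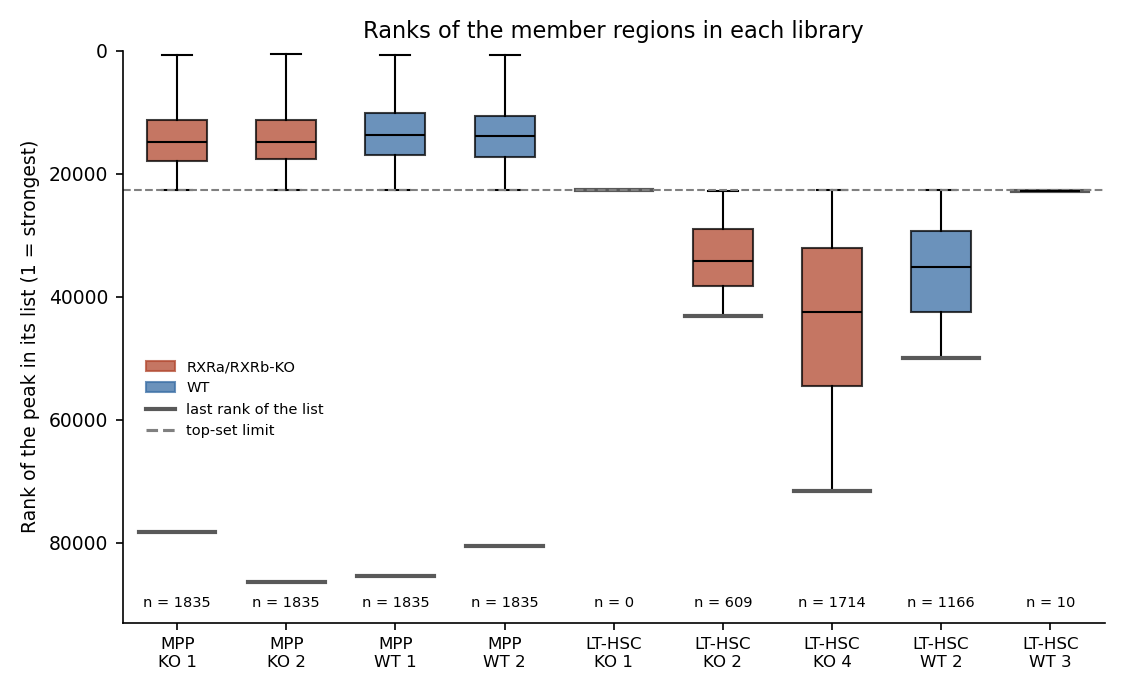
Rank of the peaks at the 1835 regions in each library, with rank 1 at the top (boxes, quartiles with the median; whiskers, lowest and highest rank; grey bars, last rank of each list; dashed line, top-set limit of 22690). The MPP boxes lie above the limit and the LT-HSC boxes below it by the choice of the regions, LT-HSC KO 1 holds none, and the number of regions held (n) differs between LT-HSC libraries of different list length.

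The regions were not held evenly by the LT-HSC libraries. LT-HSC KO 4, the longest list, held 1714 of them (93.4%, 95% Wilson interval 92.2% to 94.5%), KO 2 held 609 (33.2%, 31.1% to 35.4%), WT 2 held 1166 (63.5%, 61.3% to 65.7%) and WT 3 held 10 (0.545%, 0.296% to 1.00%). The intervals cover counting error only. The most frequent combination was a peak in KO 4 and WT 2 (671 regions), followed by KO 4 alone (497), and by KO 2, KO 4 and WT 2 together (420). In all, 601 regions were held by 1 LT-HSC library, 807 by 2, 424 by 3 and 3 by 4. Regions held by more LT-HSC libraries lay more often near a gene end, at 6.66% for 1 library, 8.30% for 2 and 12.3% for 3.

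At the limit of the top set the choice separates near neighbours. The 3 regions nearest inside in their worst MPP library, assigned to Tesc, Serhl and Cacnb2, ranked 22687, 22678 and 22675 there. The 3 nearest outside, assigned to Dip2b, Sdk1 and Pfkfb4, ranked 22691, 22696 and 22701. On the LT-HSC side the nearest regions inside, assigned to Tbc1d8, Arhgap29 and Parp11, had best LT-HSC ranks of 22701, 22704 and 22711, and the nearest outside, assigned to Pkp4, Tjp1 and Rbfa, had 22688, 22676 and 22673. A further 540 regions missed the set through 1 MPP top set, and 1060 through 1 LT-HSC top set.

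The regions lay mostly away from the ends of genes. Within 1 kb of an end of a protein-coding gene were 160 of them (8.72%, 95% Wilson interval 7.51% to 10.1%), 908 (49.5%) were inside a gene and farther from its ends, and 767 (41.8%) were outside genes. The share near gene ends was 3.93% (2.90% to 5.30%) in the 1019 regions top in all MPP libraries with no LT-HSC peak, 31.5% in the 6206 that were also top in 1 to 4 LT-HSC libraries and 57.5% in the 9717 top in all 9 libraries. The mirror set, 1317 regions top in all LT-HSC and in no MPP library but present in MPPs, had 12.3% (10.6% to 14.2%). The intervals cover counting error over regions only, not the spread among libraries, and no test was made of these shares.

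The median distance from the middle of a region to the nearest listed start was 14.8 kb for the regions and 0.254 kb for regions top in all 9 libraries. These medians cover the 1783 and 9414 regions with a listed start on their chromosome. No start was listed on chromosome 18, so its 52 regions could not be counted on promoters either. Few of the regions lay close together. Within 10 kb of another of the regions were 84 (4.58%), and within 10 kb of a region top in all 9 libraries were 310 (16.9%). Their share among regions top in all 4 MPP libraries ran from 8.31% on chromosome 8 to 11.9% on chromosome 16. The merged regions were 301 to 1613 bp wide, with a median of 488 bp.

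**Figure D2:**
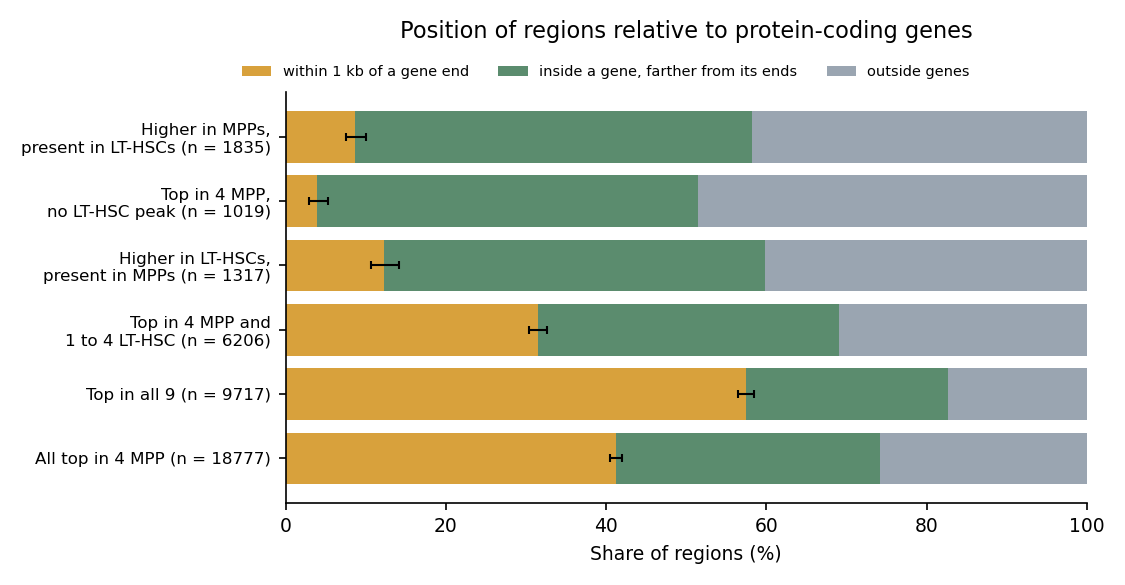
Share of regions (%) within 1 kb of an end of a protein-coding gene, inside a gene but farther from its ends, and outside genes, for the regions ranked higher in MPPs and present in LT-HSCs, and for 5 other sets (error bars, 95% Wilson interval of the first share, counting error only). The regions have 8.72% near gene ends, between the 3.93% of regions with no LT-HSC peak and the 31.5% of regions that are also top in 1 to 4 LT-HSC libraries.

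Each region was assigned to the protein-coding gene that holds its middle, or otherwise to the nearest gene end within 100 kb, so the gene named is the nearest and need not be the one served. This gave 1748 regions at 1502 genes, of which 1298 genes had 1 region, 167 had 2, 32 had 3 and 5 had 4, and left 87 regions without a gene. For regions farther than 1 kb from gene ends, 45.7% of the 1068 assigned genes with a listed start had a peak of all 9 libraries on that start, near the 47.9% for genes of all such regions top in 4 MPP libraries and above the 37.5% of all protein-coding genes. Of the 1502 genes, 196 (13.05%) also had a region of the mirror set ranked higher in LT-HSCs, against 6.61% of the 10883 genes with any region top in 4 MPP libraries and 5.19% of all protein-coding genes. These 196 were 18.3% of the 1072 genes with a region of the mirror set. Genes with more regions have more chances to hold both kinds, and this was not adjusted for. At Arhgap22, which encodes a GTPase-activating protein and was named after its values were seen, 2 regions higher in MPPs lay in the same gene as 2 regions higher in LT-HSCs.

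The strongest of the regions lay by Slc27a3, of the fatty acid transport protein family, at chr3:90383570-90384084, 1.40 kb from the gene. It ranked 705 and 597 in MPP KO 1 and 2 and 767 and 658 in MPP WT 1 and 2, against 47724 in LT-HSC KO 4 and 33933 in LT-HSC WT 2. The next lay 15.04 kb from Runx3, a RUNX factor of lymphoid and myeloid cells, at chr4:135192726-135193336, with ranks of 1558 and 1493 in MPP KO, 1696 and 1764 in MPP WT, 36783 in LT-HSC KO 4 and 28034 in LT-HSC WT 2. Within Pik3ap1, an adaptor of phosphoinositide 3-kinase signalling in immune cells, a region ranked 2077 and 1920 in MPP KO, 1659 and 1290 in MPP WT, 47991 in LT-HSC KO 4 and 43571 in LT-HSC WT 2. In MPPs both KO ranks were the stronger at Runx3, both WT ranks at Pik3ap1, and the genotypes overlapped at Slc27a3. Also among the 5 strongest was a region assigned to Adgrg3, an adhesion receptor of leukocytes, with a mean MPP rank of 2142.

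The genes with most regions included several signalling genes. Ccdc162, Rapgef1, Atf6, Cdk6 and Gm4832 had 4 each, and Ralgps1, Uvrag, Map4k4, Rapgef2 and Itgb2 led those with 3. Rapgef1 and Rapgef2 encode exchange factors for Rap GTPases, which control integrin adhesion, and Ralgps1 one for Ral GTPases. Atf6 encodes a sensor of endoplasmic reticulum stress, Uvrag an autophagy protein and Map4k4 a stress-pathway kinase. At Ccdc162 all 4 regions of the gene that were top in all 4 MPP libraries belonged to the set, and at Rapgef1 it was 4 of 9. The 4 regions within Ccdc162 ranked between 5267 and 19691 in MPP KO libraries and between 4199 and 19248 in MPP WT libraries.

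Gene lists were read as the share of a list's regions top in all 4 MPP libraries that belonged to the set, which over all protein-coding genes was 9.60% (1748 of 18208), and 15.2% for regions away from gene ends. The shares of the 21 lists ran from 0% to 34.3%, with a median of 10%. MPP and early progenitor markers had 12 of 35 (34.3%, and 12 of 27 away from gene ends), mature myeloid markers 5 of 15 (33.3%), integrins and adhesion 13 of 51 (25.5%), stromal and endothelial markers 5 of 22 (22.7%), cytokine and growth factor receptors 13 of 64 (20.3%), cell cycle genes 11 of 55 (20%, and 11 of 33 away from gene ends) and myeloid priming genes 6 of 32 (18.8%). Away from gene ends, mature myeloid markers had 4 of 13 (30.8%) and integrins and adhesion 12 of 43 (27.9%). Stromal and endothelial markers had 5 of 20 there (25%) and cytokine and growth factor receptors 12 of 47 (25.5%). Myeloid priming genes had 5 of 27 there (18.5%), nearer the 15.2% over all genes. These counts rest on few genes, regions of Cdk6, Flt3, Cebpa, Irf8, Dntt, Satb1, Itgam and Pecam1 count in 2 lists each, and no list was tested. At the other end, none of 19 erythroid and megakaryocyte regions and none of 4 regions of neuronal and hepatic control genes belonged to the set.

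**Figure D3:**
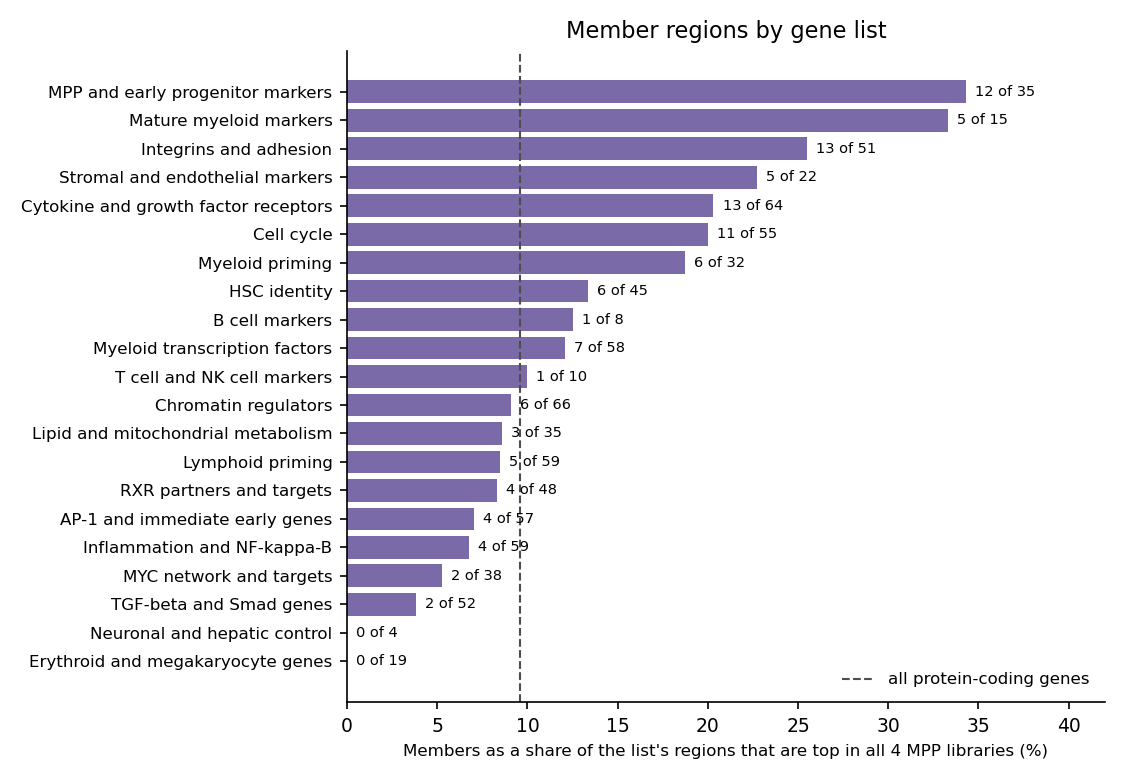
Regions of the set as a share (%) of each gene list's regions that are in the top set of all 4 MPP libraries, with the counts beside the bars (dashed line, the same share over all protein-coding genes, 9.60%). MPP and early progenitor markers have the highest share (34.3%), and erythroid and megakaryocyte genes and the neuronal and hepatic control have none.

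Among the progenitor markers, Cdk6, a kinase that drives exit from quiescence and entry into the cell cycle, had 4 regions. The strongest, inside the gene at chr5:3502458-3503007, ranked 8608 and 10061 in MPP KO 1 and 2 and 6861 and 7994 in MPP WT 1 and 2, against 68557 in LT-HSC KO 4 and 40531 in LT-HSC WT 2. Cd34, a surface protein that appears as stem cells become progenitors, had a region 10.7 kb outside the gene with ranks of 8988 and 5922 in MPP KO, 6486 and 5888 in MPP WT and 44965 in LT-HSC KO 4. A second Cd34 region, inside the gene, ranked 7331 and 8170 in MPP KO and 11424 and 8400 in MPP WT, against 32115 in LT-HSC KO 4 and 28119 in LT-HSC WT 2. Both Cd34 regions were held by KO 4, and the second also by WT 2.

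Other progenitor genes of the list were Flt3, Cebpa, Irf8, Dntt, Satb1 and Ccr9, each with 1 region, which are given here although the naming rule takes only Cdk6 and Cd34. The region inside Flt3, the cytokine receptor by which MPPs are recognised, ranked 11250 and 9726 in MPP KO and 12474 and 11196 in MPP WT, against 37565 in LT-HSC KO 4 and 36331 in LT-HSC WT 2. Cebpa, the main factor of granulocyte and monocyte fate, had an assigned region 29.1 kb away, at chr7:35150801-35151330. It ranked 17960 and 22127 in MPP KO and 14271 and 16582 in MPP WT, against 50971 in LT-HSC KO 4 and 37157 in LT-HSC WT 2. Dntt, which adds nucleotides to antigen receptor joints, had a region 6.80 kb away with ranks of 10942 and 12252 in MPP KO and 16200 and 16343 in MPP WT, against 45595 in LT-HSC KO 4 and 46831 in LT-HSC WT 2. Satb1, a chromatin organiser of early lymphoid cells, had ranks of 7471 and 9163 in MPP KO and 10183 and 11621 in MPP WT, against 25516 in LT-HSC KO 2, 26074 in LT-HSC KO 4 and 29523 in LT-HSC WT 2. In MPPs both KO ranks were the stronger at the lymphoid genes Dntt and Satb1, both WT ranks at Cebpa, and the genotypes overlapped at Flt3.

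Irf8, a factor of monocyte, dendritic and B cell development, had 1 assigned region, 36.2 kb from the gene, that ranked 13052 and 9048 in MPP KO and 7777 and 8893 in MPP WT, against 65690 in LT-HSC KO 4. On the other side, 2 regions assigned to Cox4i1, a subunit of cytochrome c oxidase, because its end is nearer lie 50.1 and 34.2 kb from Irf8. The farther one from Irf8, at chr8:120685903-120686563, was the stronger, with ranks of 4340 and 4407 in MPP KO and 3784 and 4120 in MPP WT, against 35926 in LT-HSC KO 4 and 29076 in LT-HSC WT 2. Both its WT ranks were stronger than both KO ranks. Assignment to the nearest gene thus counts these regions under metabolism and not under a myeloid factor.

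Regions at myeloid genes lay near receptors and effector proteins of granulocytes and monocytes. Mpo, the myeloperoxidase of neutrophil granules, had a region 3.62 kb away at chr11:87789836-87790491, its only region top in all 4 MPP libraries. This region ranked 16833 and 15149 in MPP KO and 12929 and 12463 in MPP WT, against 37759 in LT-HSC KO 2 and 33813 in LT-HSC KO 4. Inside Mpo or within 1 kb of it, each MPP library had 1 other peak, which was in the top set of MPP WT 1 and 2 only. Ccr2, the monocyte chemokine receptor, had 2 regions, the stronger with ranks of 7538 and 11321 in MPP KO and 10639 and 11296 in MPP WT, against 29205 in LT-HSC KO 4. At the promoter of Cx3cr1 the ranks were 10317 and 12261 in MPP KO and 9325 and 8768 in MPP WT, against 43123 in LT-HSC KO 2, 34307 in LT-HSC KO 4 and 42535 in LT-HSC WT 2. Both WT ranks were the stronger at Mpo and Cx3cr1, and the genotypes overlapped at Ccr2. Ly86, a partner of an innate receptor, also had 2 regions, the stronger with a mean MPP rank of 15690. Of the 7 regions assigned to myeloid transcription factors, none lay within 10 kb of its gene. They include 2 assigned to Id2, 68.8 and 81.9 kb away, and 1 assigned to Klf4, 91.1 kb away. The WT ranks were the stronger in 4 of the 7 and the KO ranks in none. In these directions 34.2% and 15.7% of the whole set separate, and 22.9% (WT) and 23.9% (KO) of all 18777 regions top in 4 MPP libraries.

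Leukocyte integrin genes held 6 of the 13 regions of the adhesion list. Itgb2, the beta chain shared by leukocyte integrins, had 4 regions top in all 4 MPP libraries, of which 3 were in the set. Its partner chains Itgam and Itgal had 2 and 1 in the set. The strongest Itgb2 region, inside the gene at chr10:77550882-77551378, ranked 7583 and 7922 in MPP KO and 4324 and 4981 in MPP WT, against 45449 in LT-HSC WT 2. The 2 Itgam regions ranked 13160 and 16695, and 18750 and 13111, in MPP KO 1 and 2, and 14641 and 16752, and 17578 and 16006, in MPP WT 1 and 2. In LT-HSC KO 4 they ranked 27707 and 43149, and in LT-HSC WT 2 the first ranked 30583. Cd47, the signal that protects cells from phagocytosis, had 2 regions, and Pecam1, an adhesion protein of endothelial and blood cells, had 1. Both WT ranks were the stronger at the Itgb2 region above and the genotypes overlapped at both Itgam regions.

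The 13 regions of cytokine and growth factor receptors covered 9 genes. Il6ra, the interleukin 6 receptor, held the strongest, with ranks of 3055 and 3778 in MPP KO and 1634 and 2570 in MPP WT, against 55155 in LT-HSC KO 4 and 48591 in LT-HSC WT 2. Ifngr2 ranked 6801 and 8019 in MPP KO and 6134 and 4048 in MPP WT, against 28185 in LT-HSC KO 2, 30752 in LT-HSC KO 4 and 28937 in LT-HSC WT 2. Il17ra, the interleukin 17 receptor, had 2 regions, the stronger at 7875 and 6110 in MPP KO and 4894 and 5508 in MPP WT, against 62710 in LT-HSC KO 4. Cxcr4, the receptor that keeps stem cells in the marrow, had a region inside the gene with ranks of 12622 and 15638 in MPP KO and 9081 and 8402 in MPP WT, against 33531 in LT-HSC KO 2, 25103 in LT-HSC KO 4 and 36487 in LT-HSC WT 2. At all 4 of these regions both WT ranks in MPPs were stronger than both KO ranks. Over the 13 regions this was so for 8, against 34.2% of the whole set and 22.9% of all regions top in 4 MPP libraries, and the KO ranks were the stronger for 1, at Il1r1, against 15.7% and 23.9%. Insr and Igf1r had 2 regions each. These regions were chosen from the list after the values were seen, except those of Il17ra and Insr.

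**Figure D4:**
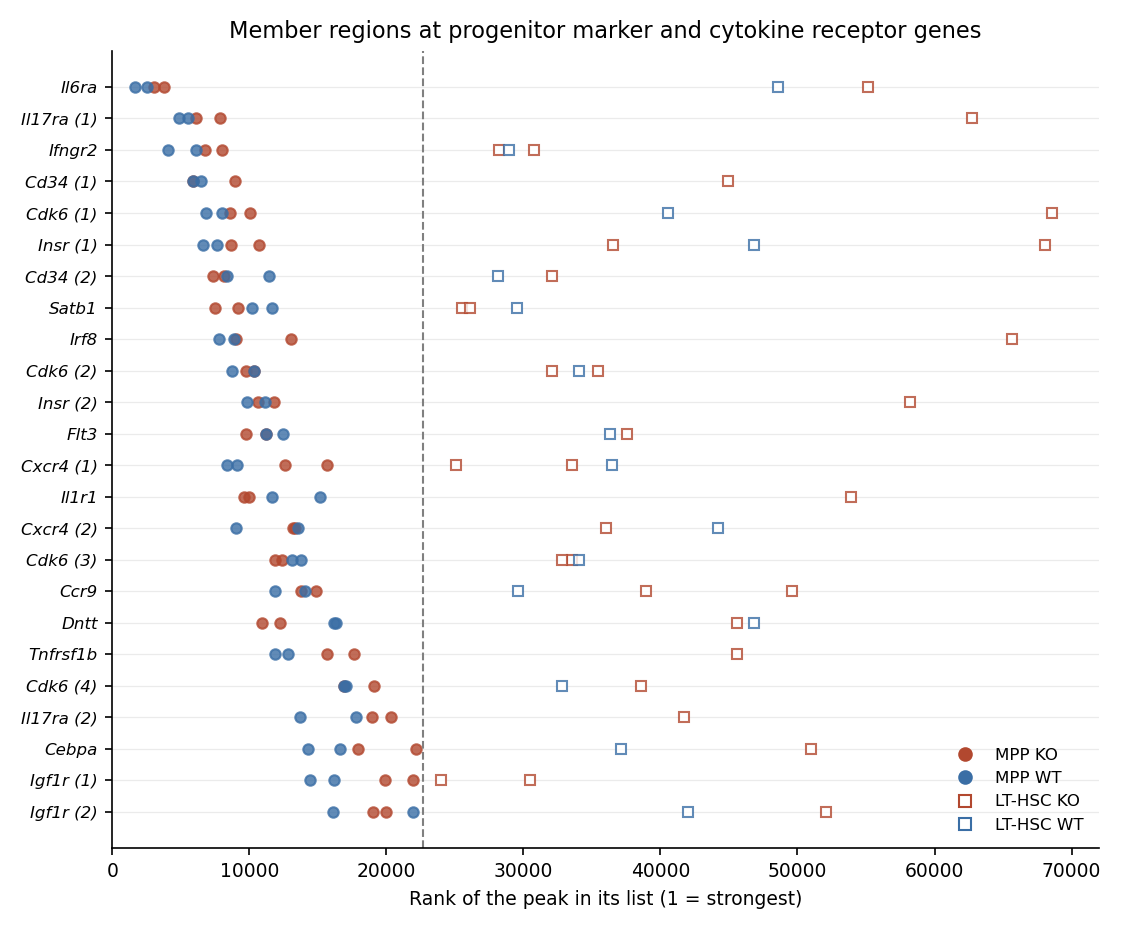
Ranks of the peaks at each region of the progenitor marker and cytokine receptor lists (one row per region, strongest at the top; circles, MPP libraries; squares, LT-HSC libraries that hold a peak; dashed line, top-set limit of 22690; numbers in brackets count the regions of a gene). At Il6ra, Ifngr2 and both Il17ra regions the WT circles lie to the left of the KO circles, and at Dntt and Satb1 the KO circles lie to the left of the WT circles.

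HSC identity genes were also among the assigned genes. Angpt1, a niche factor made by stem cells themselves and by the stroma, had 3 regions, the strongest of which ranked 14248 and 14260 in MPP KO and 14285 and 10824 in MPP WT, against 23407 in LT-HSC KO 2, 24869 in LT-HSC KO 4 and 39221 in LT-HSC WT 2. Fli1, an ETS factor of stem and megakaryocyte cells, had a region inside the gene that ranked 4100 and 5815 in MPP KO and 6118 and 4868 in MPP WT, against 28287 in LT-HSC KO 4. Erg and Mecom, both stem cell factors, had 1 region each. In all, 6 of 45 regions of the list belonged to the set (13.3%), against 8 regions of the mirror set ranked higher in LT-HSCs. Away from gene ends 5 of 33 belonged to it (15.2%), beside 15.2% over all genes.

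Cell cycle regions away from Cdk6 lay at Ccnd2 and Ccnd3, cyclins that pair with Cdk6, with 2 regions each, and at Rb1, Mcm5 and Cdkn1a with 1 each. One Ccnd2 region ranked 15879 and 20395 in MPP KO and 10346 and 12317 in MPP WT, against 26580 in LT-HSC KO 2, and the other 13802 and 15470 in MPP KO and 16407 and 15598 in MPP WT, against 33354 in LT-HSC KO 4 and 34268 in LT-HSC WT 2. The 2 Ccnd2 regions thus separated by genotype in opposite directions. RXR partners and targets had 4 of 48 regions (8.33%), below the 9.60% over all genes, against 10 regions of the mirror set ranked higher in LT-HSCs. None of the 4 lay within 10 kb of the gene it was assigned to. Assigned to Tgm2, a transglutaminase induced by retinoic acid, were 2, at 10.3 and 13.7 kb. Mylip, a liver X receptor target that degrades the LDL receptor, had 1 at 31.5 kb, and Abcg1, a cholesterol exporter, 1 at 19.1 kb. The Mylip region ranked 9576 and 9940 in MPP KO and 9638 and 12333 in MPP WT, against 37568 in LT-HSC KO 4 and 24354 in LT-HSC WT 2, and the genotypes overlapped.

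Most of the remaining lists had shares below the 9.60% over all genes. Lymphoid priming had 5 of 59 regions (8.47%), with Runx3 and Tcf12 the strongest of them, chromatin regulators 6 of 66 (9.09%), led by Arid1b, and lipid and mitochondrial metabolism 3 of 35 (8.57%), 2 of them the Cox4i1 regions above and 1 at Ppargc1a. AP-1 and immediate early genes had 4 of 57 (7.02%), assigned to Atf3 and Ier3, and inflammation and NF-kappa-B 4 of 59 (6.78%), among them Socs3 and Il1b. The MYC network had 2 of 38 (5.26%), assigned to Odc1 and Mlxip, and TGF-beta and Smad genes 2 of 52 (3.85%), assigned to Smad2 and Smad3. None of the AP-1 or Smad regions lay within 10 kb of its gene. Above the 9.60%, B cell markers had 1 of 8 (12.5%), at Ms4a1, and T cell and NK cell markers 1 of 10, at Cd5. Away from gene ends, where all genes had 15.2%, B cell markers had 1 of 7 (14.3%) and T cell and NK cell markers none of 6. The stromal and endothelial list, also above the 9.60%, had its 5 of 22 at Pdgfrb, Pecam1, Runx2, Cxcl12 and Acta2, some of which blood cells express as well. The Pdgfrb region ranked 5851 and 5755 in MPP KO and 6260 and 8244 in MPP WT, against 62156 in LT-HSC KO 4 and 45524 in LT-HSC WT 2.

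The choice of the regions did not set KO against WT, but it is not free of genotype, since both genotypes supply MPP top sets and 3 of the 5 LT-HSC lists are KO. The genotype values below are therefore descriptions. In MPPs the median rank of the regions averaged 14785 ± 20.5 in KO libraries and 13779 ± 72.1 in WT libraries (SD, n = 2 each). The difference, KO minus WT, was 1006 ranks, the 2 pairs did not overlap, and the two-sided exact permutation p was 0.333, the smallest that 2 against 2 libraries can give (adjusted over 3 tests by Benjamini-Hochberg, 0.600). With the regions chosen against the WT LT-HSC lists alone the difference was 504.75 ranks, and against the KO LT-HSC lists alone 885.25. Over single regions the median difference in rank was 724.5, against 11.5 for all regions top in 4 MPP libraries. A rank is a position relative to the other peaks of the library, and it does not show that accessibility itself was lower in KO.

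Region by region, both KO ranks were stronger than both WT ranks at 289 of the 1835 regions (15.7%), against 23.9% of all 18777 regions top in 4 MPP libraries. Both WT ranks were stronger at 627 (34.2%), against 22.9%. For regions top in all MPP libraries with no LT-HSC peak the KO and WT shares were 6.58% and 64.1%, and for regions top in all 9 libraries 27.7% and 16.9%. The sets were not tested against each other. Among the regions the same order was seen at each depth of the top set. With mean ranks of 5000 to 10000 the shares were 12.5% and 43.4% of 297 regions, against 24.6% and 23.3% of all regions at those ranks, and with mean ranks over 15000 they were 17.4% and 26.6% of 845 regions, against 23.6% and 22.3%. With the regions chosen against the WT LT-HSC lists alone the shares were 18.8% and 27.8% of 1850 regions, and against the KO LT-HSC lists alone 15.7% and 32.0% of 2644. Without MPP KO 1, MPP KO 2, MPP WT 1 or MPP WT 2, where 3 libraries separate by genotype more easily, the counts were 513 to 558 for KO (background 35.8% to 38.02%) and 870 to 1001 for WT (background 35.8% to 37.6%).

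**Figure D5:**
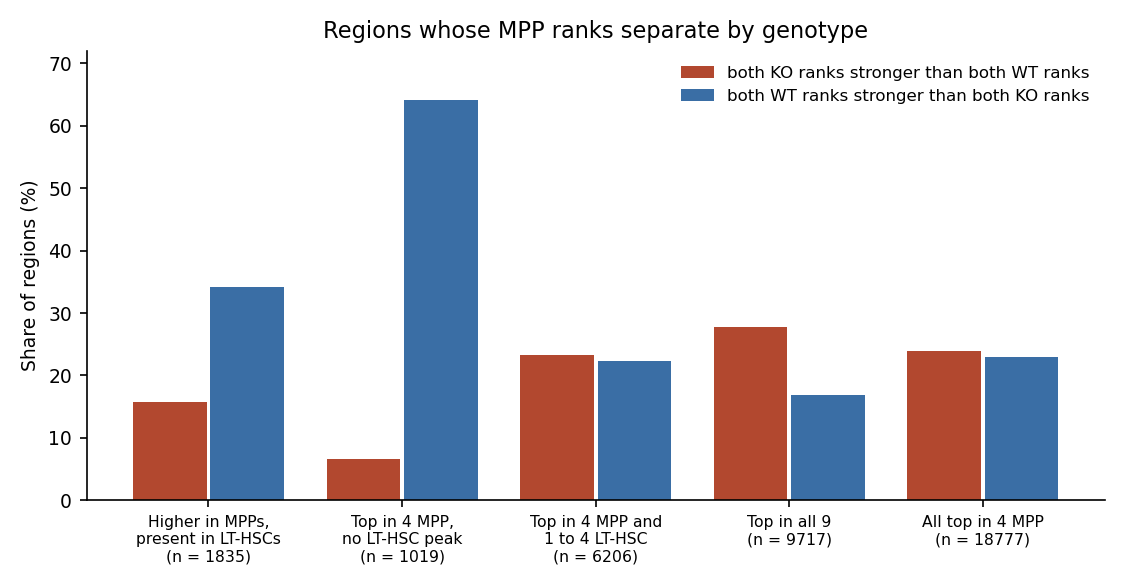
Share of regions (%) in which both MPP KO ranks are stronger than both MPP WT ranks (left bar of each pair) and in which both WT ranks are stronger than both KO ranks (right bar), by set. The regions ranked higher in MPPs and present in LT-HSCs have 15.7% and 34.2%, against 23.9% and 22.9% for all regions top in 4 MPP libraries.

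In LT-HSCs the genotypes could not be separated at these regions. None was held by all 3 KO libraries and neither WT library, against 1.58% of 76616 merged regions held by at least 1 LT-HSC library, and none was held by both WT and no KO library, against 0.0418%. The first count is 0 by construction, since LT-HSC KO 1 cannot hold a region, and the second is limited to the 10 regions of LT-HSC WT 3. Without KO 1, 141 of 1990 regions (7.09%) were held by both remaining KO libraries and neither WT library, against 6.75% of all regions held in LT-HSCs under that setting. Without WT 3, 61 of 2253 (2.71%) were held by the remaining WT library and no KO library, against 2.12%. Relative to the other regions that are outside all LT-HSC top sets, the share of the regions held was higher by 0, 6.10 and 6.18 percentage points in KO 1, KO 2 and KO 4 and by 23.7 and 0.367 points in WT 2 and WT 3. The difference, KO minus WT, was −7.93 points, and the exact two-sided permutation p over 3 against 2 libraries was 0.400, where the smallest possible is 0.1 (adjusted, 0.600). Without LT-HSC WT 2 the difference was 3.73 points, so its sign rests on that library. With KO 4 and WT 2 shortened to 43126 peaks, the length of KO 2, the lists of KO 2, KO 4 and WT 2 held 33.2%, 48.5% and 49.2% of the 1835 regions. Of the 21466 comparison regions under that setting, fewer than the 39431 used above, they held 49.8%, 50.5% and 49.5%. The list of KO 2 was the same at both settings. Its comparison share was higher here because the comparison set shrank, while all 1835 regions were kept. The 2 kinds of share thus rest on unlike bases, and their difference cannot show what list length does.

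Peaks at the regions were wider than the list median in MPPs and narrower in LT-HSCs. The median width exceeded that of the whole list by 104 and 113 bp in MPP KO 1 and 2 and by 116 and 120 bp in MPP WT 1 and 2. In LT-HSCs it differed by −72 bp in KO 2, −33 bp in KO 4, −62 bp in WT 2 and −121 bp in WT 3, the last over 10 peaks. The choice of the regions used the contrast of cell types, so this was not tested. The genotype difference within cell type, KO minus WT, was 14.8 bp. The exact two-sided permutation p was 0.667 over 36 labellings (adjusted 0.667), because LT-HSC KO 1 gives no width. Each labelling has a mirror image of equal size and opposite sign, so this test could not reach a p under 0.05. The width difference changed sign in some settings. It was −0.25 bp without LT-HSC KO 1, where the top sets are longer, and −2.5 bp without LT-HSC WT 3.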

How the data were processed

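The authors deposited 1 ATAC-seq peak list per library, 9 in all, called on mm10 per the submitters' processing notes. These name MACS2 2.1.1, Bowtie2, SAMtools 0.1.18, cutadapt 1.7, FastQC, HOMER 4.10.3, DiffBind 2.6.6 and edgeR 3.20.9 without roles. How reads were shifted for the Tn5 cut, and whether duplicates were removed, is not given in the sources. Each deposited peak has a position, a score for display, a fold enrichment (ratio to background) and −log10 p-values and q-values. No counts were used, so depth is unknown and precision rests on the number of libraries. Chromosome X was not analysed here.

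Lists were ranked, merged and compared with pandas 2.3.3 and numpy 2.4.6, and the steps were tested on simulated lists. Genes were the 20661 protein-coding genes of GRCm38.p6, and starts the 32851 promoter windows of RefSeq, which hold 16456 of those genes. Tests were two-sided exact permutations over libraries. The lists, 21 in number with 445 entries (438 in the reference), and the regions themselves were chosen with earlier results of these data known. Genes were named by rule: the 10 with most regions, up to 2 per list, and the genes of the 5 strongest regions and of the 3 on each side of the limit. Some genes the rule names are not reported here. Replicate numbers were not used to pair the MPP libraries in the main tests.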

Additional observations from a re-analysis of the deposited data

How the results depend on the processing

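The count of 1835 regions was 955 with top sets of 10000 peaks, and it stayed within 1.5 times of its value under the other settings tried, from 1513 to 2253 when 1 library was left out. With 10000 peaks, 155 regions had both KO ranks stronger in MPPs (16.2%, against 22.1% of all regions top in 4 MPP libraries) and 319 both WT ranks (33.4%, against 21.3%). At that setting 2 regions (0.209%, against 1.58% of all regions held in LT-HSCs) were held only by LT-HSC KO libraries. Only LT-HSC WT libraries held 1 (0.105%, against 0.0418%). With 15000 peaks the last 2 counts were 6 (0.407%) and 2 (0.136%), against the same 1.58% and 0.0418%. Leaving out 1 library gave 261 to 558 regions with KO stronger (15.6% to 28.7%, background 23.9% to 38.02%) and 470 to 1001 with WT stronger (31.1% to 50.1%, background 22.9% to 37.6%). It gave 0 to 141 held only by LT-HSC KO (at most 7.09%, against 6.75%) and 0 to 61 only by LT-HSC WT libraries (at most 2.71%, against 2.12%). The LT-HSC WT count was 4 (0.264%, against 3.55%) without KO 4, the longest LT-HSC list, and 2 (0.102%, against 0.234%) without WT 2. The MPP rank difference, KO minus WT, was 686.5 to 1077.5 when 1 library was left out, 468.5 with 10000 and 675 with 15000 peaks, and 504.75 against the WT LT-HSC lists alone, positive in each setting tried. The held share differed by −21.9 to 3.73 points when 1 library was left out, turning without LT-HSC WT 2, and by −22.5 points with 10000 and −17.4 points with 15000 peaks. The width difference ran from −2.5 to 31 bp when 1 library was left out, and was −11.25 bp (exact permutation p = 0.389) when LT-HSC peaks needed a q of 0.001 or less. Regions in listed genes numbered 98, 55 within 10 kb of the gene and 63 with 10000 peaks. The cause of these moves was not tested.

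Replicate numbers did not pair the MPP samples, since the replicate differences of KO and WT correlated at −0.104. With the replicate block the rank difference was 1005.5 (exact sign-flip p = 0.500), and the crossed pairing, chosen after seeing the data like the choices by genotype of LT-HSC list and the equal-length lists, also gave 1005.5 and called nothing. The planned motif search around summits was not run, as no genome was used here, and promoter windows replaced it.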
